A study of Mus musculus with 26 samples.

Results

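The genes described are those of luminal acid-base transport in the epididymis and testis. They encode the subunits of the vacuolar proton pump (V-ATPase), the bicarbonate transporters (Slc4a), the sodium-proton exchangers (Slc9a), the anion exchangers (Slc26a), the carbonic anhydrases (Car), the anion channel Cftr and the transcription factor Foxi1. They were taken by symbol from the count tables, as all genes whose names begin with Atp6v0, Atp6v1, Slc4a, Slc9a or Slc26a and a number, all named Car with a number, and Cftr and Foxi1. This gave 74 of the 23337 genes. Of these, 13 are V1 and 10 are V0 subunits of the pump, 16 are Car genes (carbonic anhydrases and related proteins), and the Slc4a, Slc9a and Slc26a families have 10 each. The symbol rule also took in Slc4a1ap, an adaptor gene, the scaffold genes Slc9a3r1 and Slc9a3r2, and Atp6v0c-ps2, a pseudogene, none of which encodes a transporter.

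RNA-seq had been run on the initial segment (IS), the most proximal part of the epididymis, and on the caput, which follows it, with 5 ArKI and 5 wild-type (WT) samples each. For the testis there were 3 samples of each genotype. The mice were males, 3 months old, on a C57Bl/6N; 129 hybrid background. ArKI is the label of a knock-in allele carried in every cell of the body, and the labels name no other allele and no treatment. The counts give no check of the genotype labels. A whole segment holds principal, basal, narrow and clear cells, muscle, leukocytes and luminal sperm, and in such bulk RNA fewer cells of a type and less RNA per cell cannot be told apart. Each genotype comparison asks which genes differ in a tissue between knock-in and WT mice.

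As background, the fluid that carries sperm through the epididymis is acid and poor in bicarbonate, which helps to keep sperm quiescent until ejaculation. Narrow cells of the IS and clear cells of the caput and beyond pump protons into the lumen through a V-ATPase in their apical membrane, whose V1 sector hydrolyses ATP in the cytosol and whose V0 sector carries protons through the membrane. Principal cells take up luminal bicarbonate, with apical sodium-proton exchange, carbonic anhydrases and the basolateral cotransporter Slc4a4, and can secrete bicarbonate through Cftr. Several V-ATPase subunits exist as a widely expressed isoform and as an isoform enriched in proton-secreting cells, and Foxi1 is a forkhead transcription factor of such cells.

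Each library held 5829074 to 9770625 counts in the IS, 4125768 to 11913469 in the caput and 14077013 to 21376604 in the testis. Levels are given in CPM (counts per 1e+06 counts of the library) after TMM scaling, done once over the 20 epididymal and once over the 6 testis libraries. Where genes are compared with each other they are given in RPKM, which is that CPM per kilobase of exon. The floor, 3 counts in a library, stood at 0.313 to 0.507 CPM for IS libraries, 0.249 to 0.667 CPM for caput libraries and 0.141 to 0.215 CPM for testis libraries, and covers counting error only. Among the 74 genes 63 reached 10 counts in some library, 7 never passed 3 counts, and 1 of those 7, Atp6v0c-ps2, had no count anywhere. Atp6v0c, which encodes the main proton-carrying ring protein of V0, had 2 counts over all libraries. The deposited counts are of uniquely mapped reads only, this gene has near-identical copies, and no level is drawn from it.

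Markers of other cells were called by edgeR at an adjusted p below 0.05, and several moved with genotype or segment. Of all genes tested 15% were higher and 14.6% lower in ArKI IS, and 13.7% higher and 14% lower in ArKI caput. Between WT segments 35.4% were higher and 35.8% lower in the caput. Markers of sperm and spermatids summed to 265 to 418 CPM in the WT caput libraries against 39.6 to 112 CPM in the ArKI caput libraries, and all 10 were lower in ArKI. In the IS they summed to 12.3 to 84 CPM in WT and 2.13 to 6.25 CPM in ArKI, with 2 of 2 tested lower. Markers of the ciliated cells of the efferent ducts, which join the IS, summed to 38.6 to 57.1 CPM in WT IS and 65.9 to 209 CPM in ArKI IS, where 5 of 5 were higher. Of the 6 IS markers, all 6 were higher in the IS than in the caput of WT mice, and 5 were lower in ArKI IS. Of the 5 genes listed as caput markers Lcn5 was higher in the WT caput and the other 4 were higher in the WT IS. The IS markers summed to 14308 to 16059 CPM in WT IS and 11421 to 12860.5 CPM in ArKI IS. They summed to 523, 922, 1908, 2103 and 814 CPM in WT caput replicates 1 to 5 and 606, 548, 1237, 831 and 752 CPM in ArKI caput replicates 1 to 5, so caput libraries held unequal amounts of IS transcripts. Of the basal cell markers 2 of 4 were lower in ArKI IS. Of the macrophage and leukocyte markers 2 of 8 were lower in ArKI IS and 1 of 7 was higher in ArKI caput. The 4 globin genes of erythrocytes were at 0 in every group, also in WT testis, where the list summed to 18.5 to 21.9 CPM. Counts of uniquely mapped reads can miss genes with near-identical copies, so these zeros give no measure of blood. The 1 erythrocyte marker that could be tested, Alas2, was higher in ArKI IS (log2 0.87 ± 0.26), where the list summed to 2.87 to 3.55 CPM against 1.03 to 2.52 CPM in WT IS.

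In WT mice the widely expressed subunits of the pump stood at the top of these genes in both epididymal segments. Per exon length the highest in the IS were Atp6v1e1, a stalk subunit of V1, with 120.4 ± 5.27 RPKM (SD, n = 5), the stalk subunit Atp6v1g1 with 111 ± 5.60 RPKM and Atp6v0d1, which links V0 to the central stalk, with 94.5 ± 2.43 RPKM. The caput order was Atp6v1e1 with 138 ± 8.53 RPKM, Atp6v0b with 116 ± 6.93 RPKM and Atp6v1g1 with 107 ± 5.64 RPKM, the first of which stood clear of the others, while Atp6v0b, a membrane subunit of V0, and Atp6v1g1 differed by little more than the larger SD. The testis had another order, led by the cytosolic carbonic anhydrase Car2 with 99.1 ± 6.56 RPKM (SD, n = 3), by Atp6v1e2, the testis isoform of the E subunit, with 80.7 ± 10.2 RPKM and by Slc9a10, the sperm sodium-proton exchanger, with 50.7 ± 2.97 RPKM. The testis was sequenced in another run and scaled apart, and in these levels the tissue cannot be separated from the run.

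**Figure D1:**
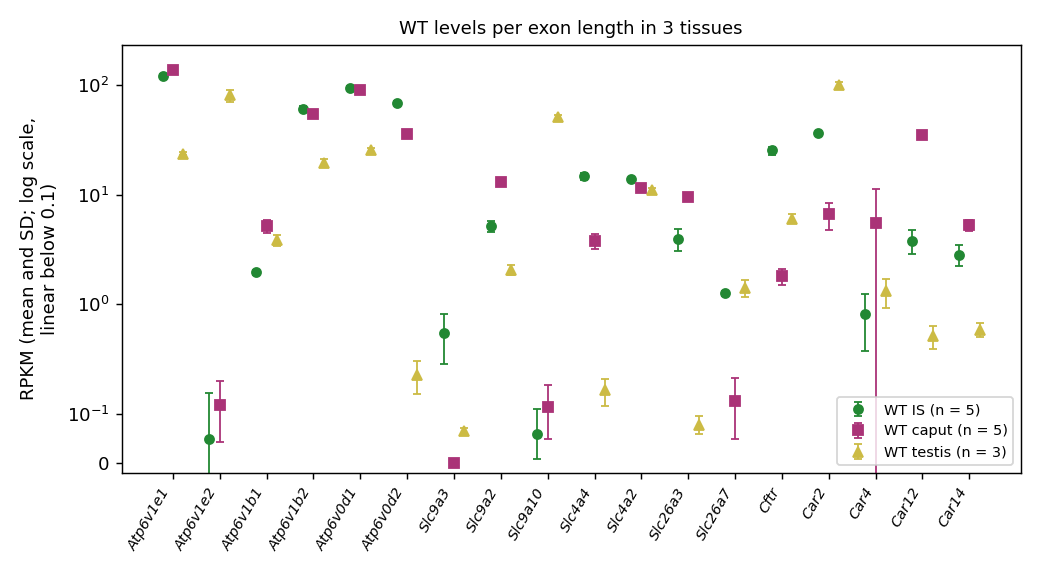
Mean RPKM (vertical axis, log scale, linear below 0.1, error bars SD) of 18 acid-base genes in WT IS (circles, n = 5), WT caput (squares, n = 5) and WT testis (triangles, n = 3). Atp6v1e2 and Slc9a10 stand high in the testis and near 0 in the epididymis, Slc9a3 is at 0 in the caput, and Car4 has the widest spread in the caput.

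Between the 2 segments of WT mice, most acid-base genes differed, as did most of all genes tested. By edgeR's quasi-likelihood test 21 of the 55 genes tested were higher and 21 lower in the caput at an adjusted p below 0.05, where 35.4% of all genes tested were higher and 35.8% lower. At an adjusted p below 0.01 and a change of more than 2-fold 17 passed, 10 higher and 7 lower, beside 20.8% of all genes. Among the 7, Slc9a3 and Slc26a7 passed the filter on low counts only through the IS libraries, and with 10 counts asked of every sample 15 passed, without these 2. Several genes of bicarbonate and proton transport were higher in the IS. Cftr had 164, 187, 197, 206 and 197 CPM in the WT IS libraries and 10.8, 12.3, 16.3, 14.8 and 13.2 CPM in the WT caput, a log2 difference of -3.83 ± 0.09 (SE). Slc4a4, the electrogenic sodium-bicarbonate cotransporter, fell by 1.97 on the log2 scale from IS to caput, from 151 ± 11 to 39 ± 6.33 CPM (SD, n = 5 each). Car2 had 64.9 ± 1.76 CPM in the IS and 11.9 ± 3.28 CPM in the caput. No library of any of these 3 genes overlapped between the segments.

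The apical exchanger Slc9a3 was seen in the WT IS and not in the WT caput, with 2.04, 1.83, 2.11, 2.97 and 5.11 CPM in the IS libraries and no count in any of the 5 WT caput libraries, which is at least 8.20-fold lower when the caput is set to 3 counts in each library. The efferent duct markers summed to 38.6, 51.8, 45, 46.3 and 57.1 CPM in the same order of WT IS libraries, highest where Slc9a3 was highest, and their part in its level was not tested. Slc26a7, a chloride-bicarbonate exchanger of acid-secreting cells elsewhere, had 6.52 ± 0.359 CPM in the IS and 0.677 ± 0.428 CPM in the caput, where it stood at 2, 7, 4, 11 and 5 reads, and since only its IS libraries took it past the filter no fitted difference is given. Slc26a9, an anion channel of the same family, had no count in any WT caput library and was at least 2.35-fold lower there by the same floor. Slc9a3r2, a scaffold that binds Slc9a3, was lower in the caput (log2 -1.30 ± 0.10, adjusted p = 1.27e-09 by edgeR), and so were the mitochondrial Car5b (-0.83 ± 0.06) the V0 subunit Atp6v0d2 (-0.96 ± 0.05), the V1 subunit Atp6v1g2 (-0.99 ± 0.09) and the anion exchanger Slc26a11 (-0.90 ± 0.11).

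Most genes of proton-secreting cells were higher in the WT caput. Foxi1 had 41.7, 25.8, 23.5, 24.2 and 38.3 CPM in the IS and 135, 166, 152, 162 and 151 CPM in the caput. Of the 6 genes of the proton-secreting list (Atp6v1b1, Atp6v1c2, Atp6v1g3, Atp6v0a4, Atp6v0d2 and Foxi1) 5 were higher in the caput and Atp6v0d2 was lower. The steepest rise along the duct was that of Atp6v0e2, a small V0 subunit, from 12.1 ± 2.67 to 145 ± 2.34 CPM (log2 3.56 ± 0.09). Next was Car12, a membrane-bound carbonic anhydrase with its active site outside the cell, from 14.1 ± 3.43 to 129.8 ± 10.5 CPM (log2 3.18 ± 0.12). The exchangers Slc9a2 (log2 1.32 ± 0.07) and Slc26a3 (log2 1.24 ± 0.12) the plasma membrane exchanger Slc9a5 (1.39 ± 0.15) and the Slc4a members Slc4a11 (1.85 ± 0.24) and Slc4a5 (1.16 ± 0.15) were also higher in the caput. Of the 12 clear and narrow cell markers outside these genes 10 could be tested, of which 8 were higher and 1 lower in the caput. Beside both lists, 35.4% of all genes tested were higher there and 35.8% lower. Leaving out the 3 caput libraries highest in IS markers (WT replicates 3 and 4, ArKI replicate 3), a choice made after seeing the data, gave 22 higher and 21 lower and 19 past the stricter limits.

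Between ArKI and WT, acid-base genes went both ways in each segment. In the IS 10 of 53 tested were higher in ArKI (18.9%) and 12 lower (22.6%) by edgeR at an adjusted p below 0.05, beside 15% and 14.6% of all genes tested, and 1 passed the stricter limits, beside 4.04%. That 1 was Slc4a9, at a few reads per WT library. In the caput 11 were higher and 11 lower of 53 (20.8% each), beside 13.7% and 14%, with 4 past the stricter limits, beside 4.98%. Without the 3 caput libraries highest in IS markers the caput counts were 10, 9 and 4. The median log2 change of these genes was -0.04 in the IS, where that of all genes tested was -0.00, and -0.05 in the caput, where it was 0.00. Of the 21 genes not tested in the caput and the 21 not tested in the IS, which had too few counts, 18 were the same and also lacked an interaction test. The calls past the stricter caput limits were Cftr and Slc4a8 under every library left out in turn, while Slc4a11 or Car2 dropped out in some of these and both did without WT caput replicate 5.

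In the V-ATPase most rises were among isoforms of proton-secreting cells. The list of these isoforms was chosen with earlier results of these data known, so the split is a description only. Of the 6 proton-secreting genes 3 rose and 1 fell in ArKI IS, and 4 rose and 1 fell in ArKI caput. Of the 15 other pump subunits tested among the 74 genes 1 rose and 3 fell in the IS, and 0 rose and 5 fell in the caput. Of all genes tested 15% rose and 14.6% fell in the IS, and 13.7% rose and 14% fell in the caput. With so few genes, the IS counts of the other subunits stood near these shares. On the log2 scale the median change for the proton-secreting list was 0.46 in the IS and 0.39 in the caput, and for the other subunits it was -0.05 and -0.09. In the caput edgeR, DESeq2 and limma-voom each called 0 of the other subunits higher, and edgeR had 0 higher at an unadjusted p below 0.05. The difference between the 2 sets of subunits was not tested.

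Atp6v1c2, an isoform of the C subunit that holds V1 on V0, rose in both segments. Its IS libraries had 5.75, 5.61, 4.97, 3.39 and 6.98 CPM in WT and 8.57, 8.88, 9.94, 9.46 and 11.3 CPM in ArKI. Its caput libraries had 9.51, 9.65, 11.3, 10.8 and 9.79 CPM in WT and 18.7, 15.4, 16.1, 11.8 and 15.2 CPM in ArKI. Every ArKI library was above every WT library of its segment. The log2 changes were 0.84 ± 0.16 (SE) in the IS and 0.61 ± 0.12 in the caput, with adjusted p of 0.000568 and 0.000843 by edgeR.

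Atp6v0a4, the isoform of the large V0 subunit that takes the pump to the apical membrane, had 5.51, 6.99, 6.95, 5.65 and 7.82 CPM in WT IS and 11.2, 8.03, 17.7, 8.45 and 14.4 CPM in ArKI IS, with no overlap. The efferent duct markers summed to 111, 65.9, 209, 108 and 135 CPM in the same order of ArKI IS libraries, so that both ranked these libraries alike, and the part of these markers in the IS rise was not tested. The caput values were 9.10, 12.9, 10.6, 11.9 and 9.32 CPM in WT and 12.1, 14, 14.7, 13.5 and 15.7 CPM in ArKI, which overlap. The changes were 0.87 ± 0.20 in the IS (adjusted p = 0.00437, edgeR) and 0.40 ± 0.11 in the caput (adjusted p = 0.0143), and the caput call was lost when all 4 epididymal groups shared one fit (adjusted p = 0.0654) and without the 3 caput libraries highest in IS markers (adjusted p = 0.0647). Exons of Atp6v0a4 overlap another annotated gene on the same strand and one on the opposite strand, by 259 and 62 bases.

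Atp6v1g3, a kidney-type G subunit of the stalk, had 20.6, 23.3, 19.4, 18.9 and 20.9 CPM in WT IS and 38.4, 30.7, 24.1, 24 and 26.6 CPM in ArKI IS. In the caput it had 53.2, 49.7, 50.8, 53.2 and 45.4 CPM in WT and 63.8, 51.4, 78, 62.4 and 67.3 CPM in ArKI. All ArKI IS libraries were above the WT ones, and in the caput replicate 2 of ArKI, the shallowest library, lay within the WT range. The log2 changes were 0.49 ± 0.11 and 0.38 ± 0.08, with adjusted p of 0.00402 and 0.00149 by edgeR.

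Atp6v1b1, the B subunit of renal intercalated and clear cells, rose in the caput, from 19.2, 20.5, 16.9, 14.1 and 17.3 CPM in WT to 26.2, 20.02, 29.4, 25.1 and 30.9 CPM in ArKI. Again only ArKI replicate 2 fell within the WT range (log2 0.61 ± 0.11, adjusted p = 0.000360, edgeR). In the IS the values were 6.95, 6.53, 6.33, 6.22 and 7.19 CPM in WT and 8.57, 8.74, 5.39, 9.13 and 10.8 CPM in ArKI, where 4 of 5 ArKI libraries were above all WT libraries and replicate 3 was below them. The IS change of 0.36 ± 0.16 did not pass (adjusted p = 0.0887), and passed without that library (adjusted p = 0.00998).

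Foxi1 itself did not pass the test in either segment. With the replicate number as a block, which here joins a WT and an ArKI mouse, Foxi1 passed in the IS (adjusted p = 0.0332, edgeR). Its IS libraries had 41.7, 25.8, 23.5, 24.2 and 38.3 CPM in WT and 46.7, 48, 23, 40.9 and 48.5 CPM in ArKI. Its caput libraries had 135, 166, 152, 162 and 151 CPM in WT and 159.7, 125, 184, 158 and 176 CPM in ArKI, and the groups overlapped in both segments. The log2 change was 0.43 ± 0.25 in the IS, with a 95% interval of -0.06 to 0.92, and 0.09 ± 0.08 in the caput, with an interval of -0.07 to 0.25, so a moderate rise in the IS lies within its interval.

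Atp6v0d2, the d isoform of epididymis and kidney, fell in both segments. It had 173, 172, 176, 184 and 164 CPM in WT IS and 145, 129.9, 133, 154 and 127 CPM in ArKI IS. In the caput the values were 85.6, 99.7, 89.9, 87 and 88.4 CPM in WT and 79.2, 62.5, 83.2, 71.1 and 78.4 CPM in ArKI. All ArKI libraries were below all WT libraries in both segments, with log2 changes of -0.33 ± 0.05 (adjusted p = 0.000108, edgeR) and -0.25 ± 0.06 (adjusted p = 0.00775). Its WT level in the IS, 68.5 ± 2.89 RPKM, was above that of Atp6v1b1, 1.96 ± 0.122 RPKM, and of Atp6v0a4, 1.85 ± 0.274 RPKM.

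**Figure D2:**
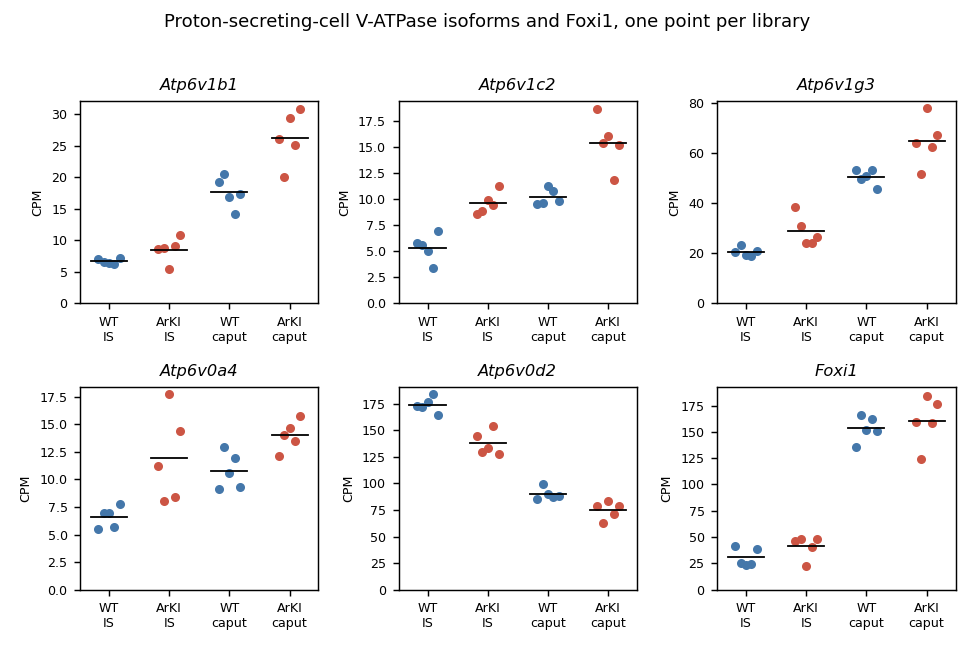
CPM (vertical axis, linear from 0) of 5 proton-secreting isoforms and Foxi1 in each library of the WT (blue) and ArKI (red) IS and caput, with the group mean as a line, n = 5 each. ArKI libraries lie above WT for Atp6v1c2 in both segments and below WT for Atp6v0d2 in both segments, while Foxi1 overlaps.

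Clear and narrow cell markers outside the pump were counted beside its isoforms. Of all genes tested 15% were higher and 14.6% lower in ArKI IS, and 13.7% higher and 14% lower in ArKI caput. In the IS 4 of the 10 tested were higher in ArKI (Hepacam2, Insrr and Rhbg among them) and 0 lower, and in the caput 5 were higher (Bsnd, Dmrt2, Stap1 and Tfcp2l1 among them) and 2 lower (the ammonia transporters Rhbg and Rhcg). Their median log2 change was 0.40 in the IS and 0.35 in the caput, beside 0.46 and 0.39 for the proton-secreting list. Their summed level was 229 to 362 CPM in WT IS and 218 to 397 CPM in ArKI IS. In the caput it was 1158 to 1297 CPM in WT and 929.8 to 1219.9 CPM in ArKI, so the sums of the genotypes overlapped in both. Both lists were chosen with earlier results of these data known, and the part of these cells in the rise of the pump isoforms was not tested.

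The 4 isoforms that rose in the caput are shown by the 250 bases before their RefSeq start (GRCm38.p6, the build mm10), since each was called higher there. Capitals mark TGTTTAC, the forkhead core, which was added to the motifs after the counts had been seen.

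Atp6v1b1 (chr6:83742767-83743016, plus strand): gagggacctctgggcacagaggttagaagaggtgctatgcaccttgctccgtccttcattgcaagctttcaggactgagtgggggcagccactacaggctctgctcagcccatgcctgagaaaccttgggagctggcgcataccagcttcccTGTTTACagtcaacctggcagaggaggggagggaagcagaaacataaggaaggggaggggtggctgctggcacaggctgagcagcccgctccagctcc
Atp6v1c2 (chr12:17324731-17324980, minus strand): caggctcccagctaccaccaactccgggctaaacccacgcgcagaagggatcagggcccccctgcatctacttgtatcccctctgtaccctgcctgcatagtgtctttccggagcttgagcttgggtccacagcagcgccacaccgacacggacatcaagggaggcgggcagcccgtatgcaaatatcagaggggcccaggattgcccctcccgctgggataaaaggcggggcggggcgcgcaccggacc
Atp6v1g3 (chr1:138273488-138273737, plus strand): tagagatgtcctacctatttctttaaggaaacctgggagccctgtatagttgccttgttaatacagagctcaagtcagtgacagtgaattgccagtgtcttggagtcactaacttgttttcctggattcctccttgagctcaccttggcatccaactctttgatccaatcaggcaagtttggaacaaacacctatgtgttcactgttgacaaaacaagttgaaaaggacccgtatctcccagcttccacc
Atp6v0a4 (chr6:38124587-38124836, minus strand): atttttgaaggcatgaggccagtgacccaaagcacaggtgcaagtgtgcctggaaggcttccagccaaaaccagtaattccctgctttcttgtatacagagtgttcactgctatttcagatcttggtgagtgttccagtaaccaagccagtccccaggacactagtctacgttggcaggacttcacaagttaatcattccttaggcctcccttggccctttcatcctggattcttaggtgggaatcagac

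The forkhead core, read on both strands, was found in Atp6v1b1 alone of these 4, starting 98 bases before the start. It was present in 3 of the 52 acid-base genes with a promoter in the table (5.77%) and in 3.54% of all 27025 genes. The E-box CACGTG was in 5 of the 52 (9.62%) against 6.86% of all, and the steroid receptor half-site AGAACA in 5 of the 52 (9.62%) against 18.2% of all, with neither in the 4 sequences shown. These are matches of letters in a short window and say nothing of binding.

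Where widely expressed pump subunits of these families changed in the caput, they fell. Atp6v0a1, the commonest large V0 subunit here, had 229, 235, 231, 239 and 243 CPM in WT IS and 200.1, 182, 190.1, 199.9 and 218 CPM in ArKI IS. In the caput it had 204, 227, 209.6, 211 and 216 CPM in WT and 164, 166, 158, 167 and 168 CPM in ArKI. The groups did not overlap in either segment, and the log2 changes were -0.24 ± 0.05 and -0.36 ± 0.05 (adjusted p = 0.000596 and 1.68e-05, edgeR). Atp6v0d1 fell in both segments (-0.15 ± 0.04 and -0.16 ± 0.05, the latter lost under 8 of 19 alternatives), and so did Atp6v1e1 (-0.14 ± 0.04 and -0.27 ± 0.05), whose IS call was lost with library size only and without WT IS replicate 1 (adjusted p up to 0.0595, edgeR).

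The widely expressed C and D subunits of V1 fell in the caput. Atp6v1c1, the widely expressed partner of Atp6v1c2, had 79.1, 86.8, 79.3, 97.8 and 83.5 CPM in WT caput and 64.9, 65.6, 68.9, 61.8 and 64.5 CPM in ArKI caput, without overlap. Its caput change was -0.37 ± 0.06 (adjusted p = 0.000164) and its IS change -0.05 ± 0.04 (adjusted p = 0.398), and the difference between the segments passed the interaction test (-0.33 ± 0.07, adjusted p = 0.00224, edgeR). Atp6v1d, of the central stalk, changed by -0.22 ± 0.05 in the caput and 0.05 ± 0.06 in the IS, again with a difference between segments (-0.27 ± 0.08, adjusted p = 0.0133). Atp6v1a, the catalytic A subunit, had 135 ± 10.5 and 138 ± 6.67 CPM in WT and ArKI IS and 127 ± 6.84 and 118 ± 6.38 CPM in the caput, and passed in neither segment.

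Of the 15 other pump subunits tested among the 74 genes, Atp6v0e2 was the 1 that rose, in the IS. The WT IS libraries had 15.7, 10.5, 8.82, 12 and 13.7 CPM and the ArKI IS libraries 19.6, 25.4, 23.6, 20.1 and 23.8 CPM, with no overlap (log2 0.89 ± 0.13, adjusted p = 3.87e-05, edgeR). Caput levels were far higher and close to each other, 145 ± 2.34 CPM in WT and 147 ± 5.98 CPM in ArKI (log2 0.03 ± 0.04), and the interaction passed (-0.86 ± 0.12, adjusted p = 2.35e-05). The efferent duct markers summed, in the same order of ArKI IS libraries, to 111, 65.9, 209, 108 and 135 CPM, lowest in the library where Atp6v0e2 was highest, and their part in its rise was not tested.

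**Figure D3:**
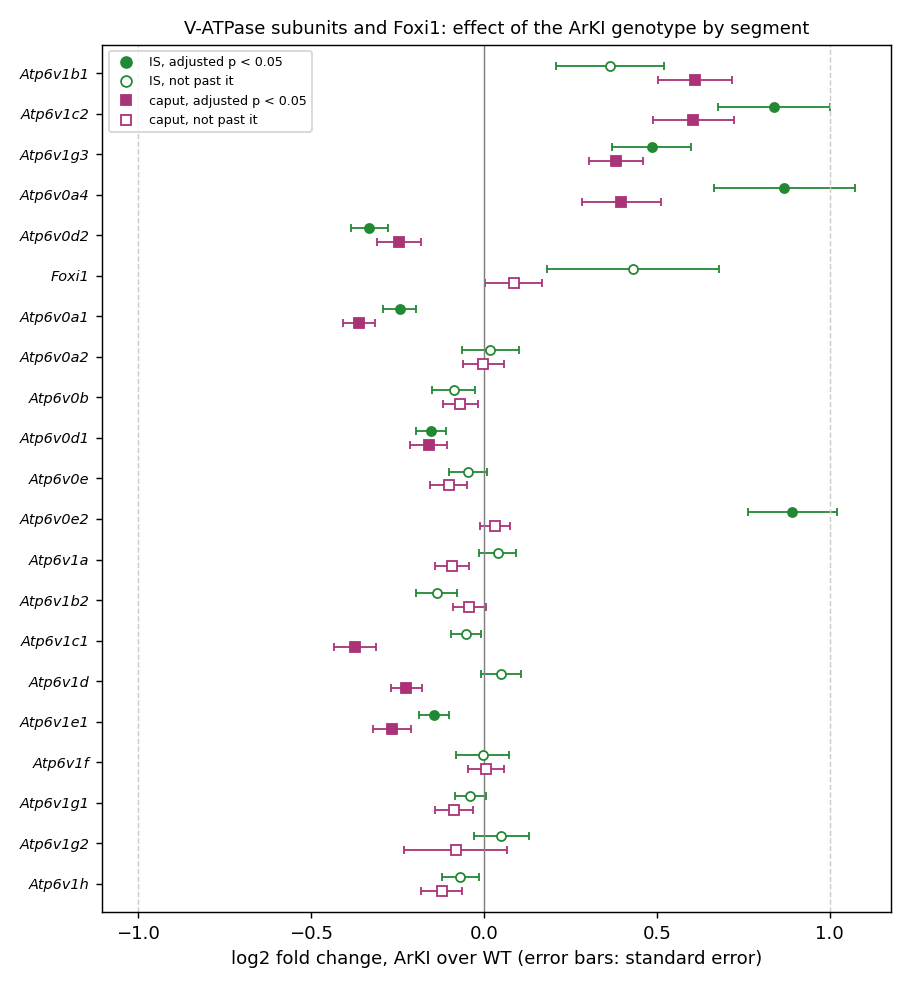
Log2 change, ArKI over WT (horizontal axis, error bars SE), of the proton-secreting genes (top 6) and the 15 other V-ATPase subunits tested, in the IS (circles) and caput (squares), with filled symbols for an adjusted p below 0.05 and dashed lines at a 2-fold change. Of the top 6, Atp6v0d2 lies to the left of 0 in both segments and the other 5 to the right, and Atp6v0e2 in the IS lies farthest to the right of the other subunits.

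Partners of the pump outside the 74 genes, and other acid-base genes, were read from a list of 31, of which 25 were in the tables. In the IS 3 were higher and 3 lower of 21 tested, near the 15% and 14.6% of all genes tested. In the caput 4 were higher and 8 lower of 22, beside 13.7% and 14%. The caput falls included Atp6ap1 and Atp6ap2, accessory proteins of the pump, with log2 changes of -0.19 ± 0.06 and -0.18 ± 0.06, and the lactate carriers Slc16a1 (-0.71 ± 0.12) and Slc16a3 (-0.47 ± 0.09). Among the rises was Tcirg1, another isoform of the large V0 subunit (0.33 ± 0.08, adjusted p = 0.00551, edgeR).

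Cftr, the cyclic AMP-gated channel for chloride and bicarbonate (chr6:18170687-18322768, plus strand), fell in the caput, and its effect differed between the segments. In the caput the WT libraries had 10.8, 12.3, 16.3, 14.8 and 13.2 CPM and the ArKI libraries 3.96, 4.0, 8.68, 6.09 and 6.40 CPM, so that every ArKI library was below every WT library. The change was -1.14 ± 0.18 on the log2 scale, 2.20-fold lower (adjusted p = 0.000176, edgeR). In the IS, where the level was far higher, WT libraries had 164, 187, 197, 206 and 197 CPM and ArKI libraries 176, 183, 204, 213 and 184 CPM, overlapping throughout. The IS change was 0.02 ± 0.06, with a 95% interval of -0.10 to 0.15. The difference between the segments was -1.14 ± 0.19 (adjusted p = 0.000248). Within each genotype the caput libraries highest in Cftr, WT replicates 3 and 4 and ArKI replicate 3, were those highest in IS markers. Without these 3 the caput change was -1.17 (adjusted p = 0.000417). A gene on the opposite strand overlaps Cftr exons by 129 bases.

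Slc4a4, which carries bicarbonate across the basolateral membrane, also fell in the caput, with a different effect in the IS. The caput libraries had 30.6, 43, 45.1, 42.2 and 33.9 CPM in WT and 20.6, 22.2, 28.7, 30.5 and 26.2 CPM in ArKI, with only a small gap between the groups (log2 -0.57 ± 0.13, adjusted p = 0.00485, edgeR). The IS libraries had 135, 147, 161, 152 and 162 CPM in WT and 139, 171, 174, 165 and 159 CPM in ArKI (log2 0.10 ± 0.06, adjusted p = 0.263), and the segments differed (-0.66 ± 0.15, adjusted p = 0.00349). Without the 3 caput libraries highest in IS markers the caput change was -0.49 (adjusted p = 0.0396). The IS change passed without ArKI IS replicate 1.

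Slc4a8, a sodium-driven chloride-bicarbonate exchanger (chr15:100761747-100823968, plus strand), rose in both segments and had the smallest adjusted p of these genes in the caput. The IS libraries had 30.4, 27.5, 26.8, 21.3 and 27.1 CPM in WT and 38.9, 41.6, 47.3, 46.6 and 39.6 CPM in ArKI. The caput libraries had 21.7, 16.3, 19.4, 16.1 and 16.3 CPM in WT and 45.2, 40.9, 36.8, 40.4 and 39.7 CPM in ArKI. No library overlapped in either segment. While WT means were 26.6 ± 3.30 CPM in the IS and 18 ± 2.51 CPM in the caput, ArKI means were 42.8 ± 3.93 and 40.6 ± 3.04 CPM. The log2 changes were 0.68 ± 0.09 (adjusted p = 6.43e-06, edgeR) and 1.18 ± 0.09 (adjusted p = 4.23e-08), and the rise was larger in the caput (0.50 ± 0.13, adjusted p = 0.00889).

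Slc4a11, a member of the family that moves protons rather than bicarbonate (chr2:130684113-130697519, minus strand), rose in the caput. WT caput libraries had 18.4, 8.88, 11.9, 7.24 and 11.4 CPM and ArKI caput libraries 31.6, 29.1, 18.9, 31.2 and 29.8 CPM, and the lowest ArKI library was just above the highest WT library (log2 1.28 ± 0.24, adjusted p = 0.00340, edgeR). Its IS means were 3.20 ± 0.240 CPM in WT and 3.37 ± 0.774 CPM in ArKI (log2 0.10 ± 0.20), and the segments differed (1.17 ± 0.35, adjusted p = 0.0247), a call that limma-voom did not make and that was lost without ArKI IS replicate 2 or 3.

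Slc4a9, an exchanger of renal intercalated cells, had 4, 1, 3, 2 and 7 reads in the WT IS libraries and 19, 16, 11, 11 and 14 reads in the ArKI IS libraries, or 0.479, 0.115, 0.373, 0.283 and 0.729 CPM and 2.51, 2.25, 1.56, 1.86 and 1.64 CPM. The groups did not overlap. The WT level was near the depth limit, and the gene passed the filter on low counts only through the ArKI IS libraries, so that once let in it had to differ, and its fitted log2 difference of 2.24 ± 0.36 describes these counts and no more. The caput had 5, 2, 4, 3 and 3 reads in WT and 2, 0, 4, 3 and 1 in ArKI, too few to be tested alone there. It entered the interaction fit, too, only through ArKI IS, and no difference between segments is drawn from it.

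In the Slc4a family as a whole 2 of 8 tested rose and 2 fell in the IS, and 2 of 7 rose and 2 fell in the caput. Slc4a3, another chloride-bicarbonate exchanger, fell in both segments (-0.32 ± 0.09 and -0.28 ± 0.08), and its caput call was lost without the 3 caput libraries highest in IS markers (adjusted p = 0.131). Slc4a7, an electroneutral sodium-bicarbonate cotransporter, fell in the IS (-0.40 ± 0.13, adjusted p = 0.0283, edgeR), a call lost under 8 of 18 alternatives, and had -0.05 ± 0.10 in the caput. Slc4a2, the widely expressed chloride-bicarbonate exchanger, had 64.2 ± 2.27 and 64 ± 4.42 CPM in WT and ArKI IS and 53 ± 3.87 and 54 ± 2.35 CPM in the caput. Its log2 changes were -0.00 ± 0.05 and 0.04 ± 0.06. The 95% intervals of Slc4a2, -0.11 to 0.10 in the IS and -0.07 to 0.15 in the caput hold only small changes, and its exons overlap an antisense gene by 694 bases. Slc4a5, an electrogenic cotransporter, changed by -0.17 ± 0.22 and -0.07 ± 0.14 and passed in neither. Slc4a1, the anion exchanger of erythrocytes, and Slc4a10 were at or below 3 counts in every epididymal library.

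**Figure D4:**
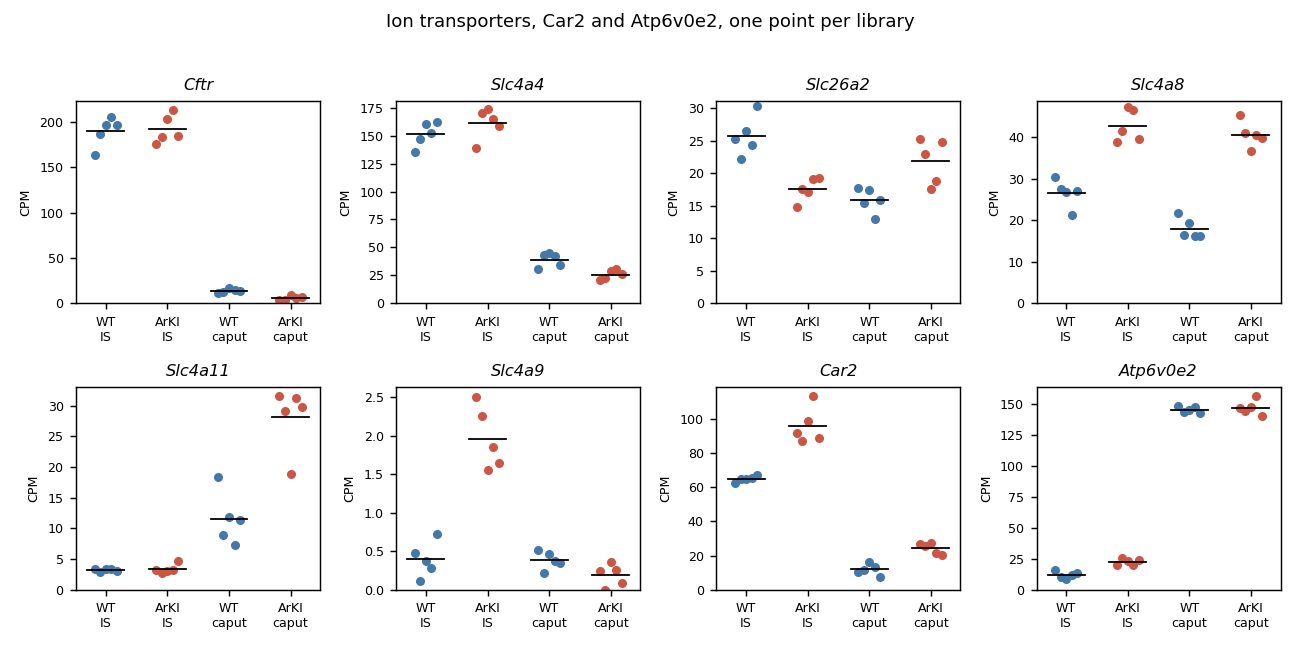
CPM (vertical axis, linear from 0) of 6 transporters, Car2 and Atp6v0e2 in each library of the WT (blue) and ArKI (red) IS and caput, with the group mean as a line, n = 5 each. Cftr and Slc4a4 are lower in ArKI caput and overlap in the IS, Slc26a2 falls in the IS and rises in the caput, and Slc4a8 and Car2 are higher in ArKI in both segments.

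Slc9a3, the apical exchanger that absorbs sodium and bicarbonate, had 2.04, 1.83, 2.11, 2.97 and 5.11 CPM in WT IS and 1.45, 1.27, 5.11, 2.53 and 3.16 CPM in ArKI IS, fully overlapping (log2 -0.06 ± 0.39), and among ArKI IS libraries, too, the highest was the one with the most efferent duct markers. ArKI caput libraries had 0, 2, 0, 1 and 2 reads, all at or below 3 counts. Slc9a2, the apical exchanger that was higher in the WT caput, changed by -0.13 ± 0.10 in the IS and -0.13 ± 0.08 in the caput and passed in neither.

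Slc9a8, of the Golgi, fell in the IS (-0.19 ± 0.05) and had 0.09 ± 0.05 in the caput. The segments differed (0.28 ± 0.07, adjusted p = 0.00771), a call lost without the 3 caput libraries highest in IS markers (adjusted p = 0.0503).

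The scaffolds that tether Slc9a3 and Cftr at the apical membrane moved apart in the IS. Slc9a3r1 (NHERF1) rose in the IS, from 61.7, 63.6, 59, 56.1 and 61.6 CPM in WT to 70.7, 68.3, 82, 80.6 and 74.3 CPM in ArKI without overlap (0.32 ± 0.06, adjusted p = 0.000417, edgeR). Slc9a3r2 (NHERF2) fell there, from 27.1, 37.6, 33.5, 32.9 and 29.6 CPM to 27.3, 19.6, 23.6, 22.8 and 21.2 CPM with a small overlap (-0.48 ± 0.10, adjusted p = 0.000827). In the caput both kept these signs, with 0.18 ± 0.07 and -0.26 ± 0.12, and neither passed (adjusted p = 0.0557 and 0.115), but Slc9a3r1 passed under 6 of 19 alternatives, the replicate block and the fits without ArKI caput replicate 1 or 3 among them (lowest adjusted p = 0.0319, edgeR).

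Slc26a2, a sulfate transporter, was the 1 gene, of those tested in both, that changed in opposite directions in the 2 segments. It fell in the IS, from 25.3, 22.2, 26.6, 24.3 and 30.3 CPM in WT to 14.8, 17.6, 17.2, 19.1 and 19.2 CPM in ArKI, without overlap (log2 -0.55 ± 0.10, adjusted p = 0.000239, edgeR). It rose in the caput, from 17.7, 15.5, 17.4, 12.9 and 15.8 CPM to 25.3, 22.9, 17.6, 18.8 and 24.8 CPM, where 1 ArKI library lay just within the WT range (0.47 ± 0.12, adjusted p = 0.00634). The difference was 1.01 ± 0.16 (adjusted p = 6.76e-05), with means of 25.7 ± 3.01 and 15.8 ± 1.92 CPM in WT IS and caput and 17.6 ± 1.81 and 21.9 ± 3.50 CPM in ArKI IS and caput.

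In the Slc26a family edgeR called Slc26a2 alone of 5 tested in the IS, where 14.6% of all genes fell and limma-voom also called Slc26a7. In the caput 2 of 4 rose, beside 13.7% of all genes tested. The second of these, Slc26a3, a chloride-bicarbonate exchanger, rose by a small amount in the caput, from 29.2, 24.3, 28.1, 28.8 and 29.3 CPM in WT to 33.8, 32, 29.9, 31 and 36.3 CPM in ArKI (log2 0.24 ± 0.07, adjusted p = 0.0216, edgeR). The groups did not overlap, and the call was lost under 4 of 19 alternatives, among them all 4 epididymal groups in one fit. Slc26a6, another such exchanger, had 3.82 ± 0.790 and 4.30 ± 1.08 CPM in the caput and passed in neither segment. Slc26a4, the exchanger of renal intercalated cells, was at 0.118 to 0.658 CPM in WT caput and 0.166 to 0.515 CPM in ArKI caput, too low to be tested. Slc26a8, a sperm member of the family, was not analysed here.

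Carbonic anhydrases speed the interchange of carbon dioxide and bicarbonate. Counted by symbol, whether active enzymes or not, 2 of 7 Car genes tested rose and 2 fell in the IS, beside 15% and 14.6% of all genes. In the caput 2 of 9 rose and 2 fell, beside 13.7% and 14%. Car2, the main cytosolic enzyme (chr3:14886273-14900770, plus strand), rose in both segments, with 62.4, 64.5, 64.8, 65.6 and 67.3 CPM in WT IS and 91.4, 86.9, 98.8, 113 and 88.6 CPM in ArKI IS. The caput values were 10.6, 11.5, 16.4, 13.2 and 7.55 CPM in WT and 26.8, 25.6, 27.5, 21.4 and 20.4 CPM in ArKI. All ArKI libraries were above all WT libraries in both. The log2 changes were 0.56 ± 0.06 (adjusted p = 1.62e-06, edgeR) and 1.04 ± 0.17 (adjusted p = 0.000509), and the difference between segments did not pass (0.47 ± 0.18, adjusted p = 0.0770), although it did under 5 of 28 alternatives, DESeq2 among them. Car5b, a mitochondrial enzyme, rose by nearly the same amount in both, 0.44 ± 0.05 and 0.42 ± 0.07, from 100.2 ± 6.53 to 136 ± 7.29 CPM in the IS and from 56.8 ± 4.30 to 75.3 ± 6.88 CPM in the caput.

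Among the membrane-bound carbonic anhydrases, which act in the lumen or outside the cell, Car12 fell in the caput, from 133, 144, 121, 118 and 133 CPM in WT to 94.3, 86.8, 99.5, 95.1 and 97.6 CPM in ArKI, with no overlap (-0.44 ± 0.05, adjusted p = 1.21e-05, edgeR), and had 0.14 ± 0.26 in the IS with a wide 95% interval of -0.36 to 0.64. Car14 fell in the IS, from 3.96, 4.35, 6.71, 4.52 and 4.79 CPM to 2.90, 3.80, 2.70, 2.20 and 3.87 CPM without overlap (-0.63 ± 0.21, adjusted p = 0.0256), a call lost without ArKI IS replicate 1 or 4 or WT IS replicate 3 (adjusted p up to 0.0870). It had 0.03 ± 0.16 in the caput and overlaps exons of an antisense gene by 445 bases. Car4, linked to the membrane by a lipid anchor, varied more within groups than between them, with 18.7, 0.219, 6.46, 2.70 and 6.84 CPM in WT caput and 10.1, 45.4, 1.70, 7.03 and 19.7 CPM in ArKI caput, and gave no call (1.10 ± 0.97, adjusted p = 0.463).

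Of the cytosolic enzymes at lower levels, Car7 fell in the IS (-0.60 ± 0.16, adjusted p = 0.00912, edgeR), a call lost when all 4 epididymal groups shared one fit (adjusted p = 0.0645), and Car13 fell in the caput (-0.73 ± 0.26, adjusted p = 0.0476), the latter a call that was lost under 15 of 18 alternatives. Car1, Car5a, Car6 and Car10 never passed 3 counts in the epididymis.

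**Figure D5:**
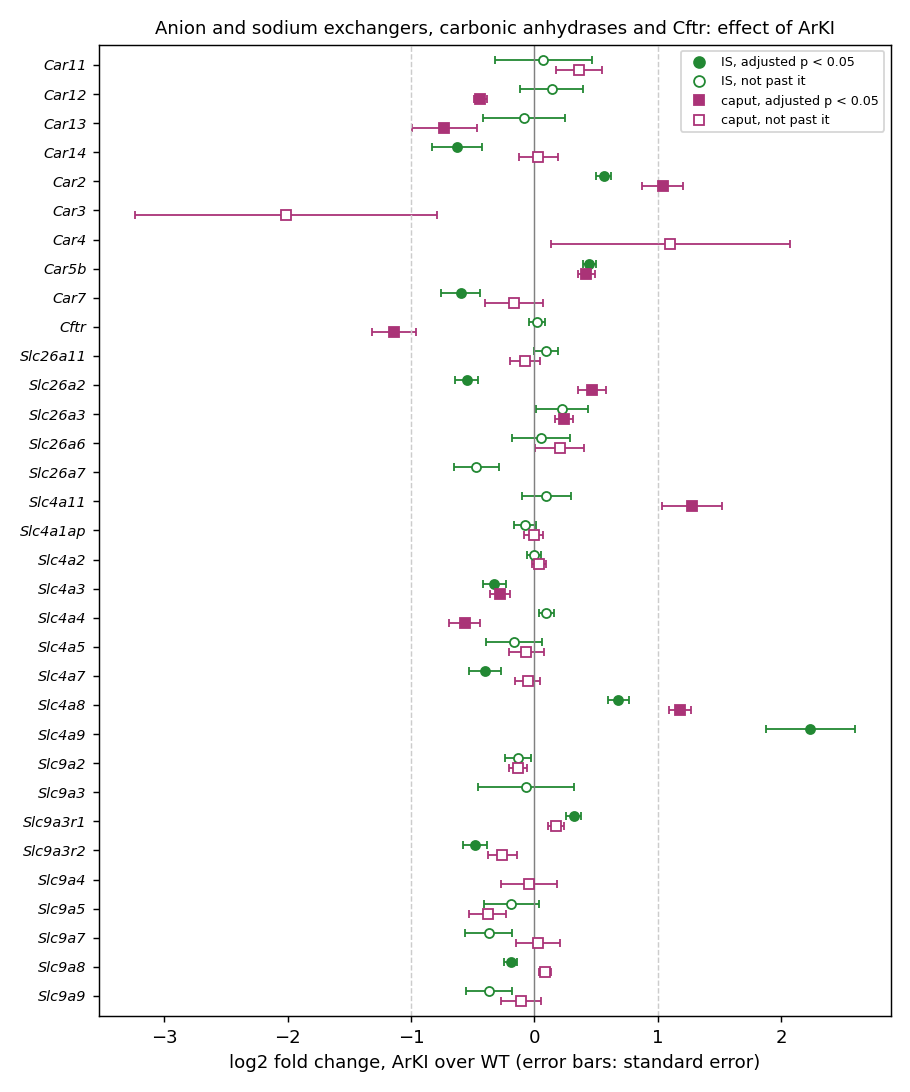
Log2 change, ArKI over WT (horizontal axis, error bars SE), of Slc4a, Slc9a, Slc26a and Car genes tested and Cftr in the IS (circles) and caput (squares), with filled symbols for an adjusted p below 0.05 and dashed lines at a 2-fold change. Slc4a9 in the IS and Slc4a8, Slc4a11, Car2 and Cftr in the caput lie past the dashed lines with filled symbols, and Car3 and Car4 have error bars of about 1 or more.

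Across all 56 genes tested for a segment by genotype interaction, 4 had a caput effect above the IS effect and 6 below it by edgeR at an adjusted p below 0.05, where 7.38% and 7.77% of all genes passed. The 4 were Slc26a2, Slc4a11, Slc4a8 and Slc9a8, and the 6 were Atp6v0e2, Atp6v1c1, Atp6v1d, Cftr, Slc4a4 and Slc4a9, the last of which passed the filter only through ArKI IS. Of the 6 genes of the proton-secreting list 0 were among them by edgeR, DESeq2 or limma-voom, and edgeR had 0 of them at an unadjusted p below 0.05. The nearest was Atp6v0a4, with a log2 difference of -0.47 ± 0.24 (adjusted p = 0.198, edgeR).

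In the testis 0 of the 55 genes tested were called by edgeR, at an adjusted p below 0.05 or at the looser limit of 0.2 with a 2-fold change. Of all genes tested 1.64% were higher, 0.328% lower and 0.833% past the looser limit with its fold. At an unadjusted p below 0.05 edgeR had 6 of these genes, 2 higher and 4 lower, limma-voom 6 and DESeq2 3, and limma-voom and DESeq2 also called 0 at an adjusted p below 0.05. The smallest adjusted p was that of Car5b (0.119), with 8.22, 5.24 and 5.83 CPM in WT and 8.46, 9.18 and 9.35 CPM in ArKI, without overlap and with a log2 difference of 0.47 ± 0.15. Cftr had 43.4, 50.4 and 42.4 CPM in WT testis and 37.3, 39.2 and 41 CPM in ArKI testis (-0.21 ± 0.08, adjusted p = 0.244). Car2, the highest of these genes per exon length in the testis, had 177 ± 11.7 and 175 ± 3.59 CPM (SD, n = 3 each), and Slc9a10 had 195 ± 11.4 and 187 ± 15.7 CPM.

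Traces of testis genes were seen in the caput. Slc9a10 had 7, 2, 5, 1 and 5 reads in the WT caput libraries and 1, 0, 0, 1 and 0 reads in the ArKI caput libraries, below the filter on low counts, and passed the stricter limits once the filter was lowered to a single count. Atp6v1e2 had 2, 1, 2, 0 and 2 reads in WT caput and 0, 0, 0, 1 and 1 in ArKI caput. The sperm markers were lower in the same ArKI libraries, and their part in these values was not tested.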

How the data were processed

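Total RNA of IS, caput and testis had been sequenced as poly(A) libraries, made with a TruSeq RNA v2 kit per the labels and a stranded TruSeq kit per the study's methods. Per the labels and methods the authors demultiplexed reads with bcl2fastq 1.8.4, aligned them to mm10 with STAR and deposited raw counts per RefSeq gene, made with featureCounts of Subread 1.5.1 from uniquely mapped reads. The counting strand is not given in the sources used here, so genes with an antisense overlap are uncertain. The epididymal samples were sequenced in one batch and the testis samples in another.

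Groups came from the labels, with 5 samples per genotype in each segment and 3 in the testis. Counts were tested with edgeR 4.0.16 in R 4.3.3 (filterByExpr with minima of 10 counts per library and 15 in total, TMM, robust quasi-likelihood fit, 2-sided, Benjamini-Hochberg over all genes tested), separately for ArKI against WT in each tissue and for WT caput against WT IS. The interaction of genotype and segment was fitted over the 4 epididymal groups. Per the study's methods both segments were taken from 5 mice of each genotype, so IS and caput samples share animals. The labels do not tie a sample to a mouse, and the segment and interaction tests took the libraries as independent. In the IS, caput and WT comparisons the stricter limits were an adjusted p below 0.01 and a change over 2-fold, and in the testis 0.2 and 2-fold, after the study's methods, whose own test (ROTS) was replaced. Errors of log2 changes are standard errors, from the change and the F statistic, and intervals are 95%. RPKM used GENCODE M21 exon lengths, although the reads had been counted per RefSeq gene. Alternatives were DESeq2 1.42.0, limma-voom (limma 3.58.1), other scalings and filters, a replicate block and each sample left out. The fits were tested on simulated data.

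The members and gene lists were chosen with earlier results of these data known. The genes named are those past the stricter limits, the 12 with the smallest adjusted p below 0.05 per comparison, the 3 highest in each WT tissue and a fixed list of transporters and isoforms. Any other member below 0.05 is named only to complete the count of its family. Some genes that enter the counts are not reported here by name, and Slc26a8, a fixed name, was not analysed here.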

Additional observations from a re-analysis of the deposited data

Results flagged for a closer look

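Of 144 groups of 5 libraries examined for 1 library far from the rest, by Dixon's ratio above 0.71, 5 were found, where chance gives about 1 in 20. Atp6v1e1 was at 146 CPM in WT IS replicate 5, where the other 4 libraries had 159 to 163 CPM. In the same library Slc4a2 was at 68.1 CPM, above the 62.7 to 64.2 CPM of the others. Slc26a3 was at 24.3 CPM in WT caput replicate 2, below the others at 28.1 to 29.3 CPM. Slc4a7 was at 24.8 CPM in ArKI IS replicate 3, above the others at 17.0 to 18.6 CPM, in the library that also had the most efferent duct marker RNA. In ArKI caput replicate 3, the ArKI caput library with the most IS marker RNA, Slc4a11 was at 18.9 CPM, against 29.1 to 31.6 CPM in the others.

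By edgeR's interaction test of the knock-in effect between caput and IS 10 of 56 acid-base genes were called, 4 higher and 6 lower, beside 7.38% and 7.77% of all genes tested. Of the 6, Slc4a9 passed the filter on low counts only through ArKI IS, so that its value is not read as a difference. The caput effect minus the IS effect was -0.86 on the log2 scale for Atp6v0e2, -0.33 for Atp6v1c1, -0.27 for Atp6v1d, -1.14 for Cftr, -0.66 for Slc4a4 and, with that limit, -3.08 for Slc4a9. It was 1.01 for Slc26a2, 1.17 for Slc4a11, 0.50 for Slc4a8 and 0.28 for Slc9a8. The Slc4a11 call was lost under limma-voom and without ArKI IS replicate 2 or 3, and the Slc9a8 call without the 3 caput libraries highest in IS markers.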

How the results depend on the processing

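Over the alternatives, single-gene values kept their side of the threshold in 2939 cases, of which 54 were of uncalled genes that took the other sign, lost a call in 69 and gained one in 19, and no called gene changed sign. In the IS the count past the stricter limits was 0 when 10 counts were asked of every sample, which left Slc4a9 untested, and 1 to 2 with 1 library left out (2 without WT IS replicate 1, which added Atp6v0e2). In the caput it was 2 to 4 with 1 library left out, 2 without WT caput replicate 5. In the testis 1 gene, Car5b, was higher at an adjusted p below 0.05 with the filter lowered to a single count, and leaving out 1 library gave 0 to 1 higher (1 without WT testis replicate 1) and 0 to 1 past the looser limits (Slc4a10 without ArKI testis replicate 1, Car8 without ArKI testis replicate 2). The interaction had 3 to 7 genes with a higher caput effect with 1 library left out, 7 without ArKI caput replicate 5. The causes of these shifts were not tested.

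No comparison had a correlation above 0.1 between samples of the same replicate number in every pair, which was the condition for treating them as pairs. The correlations were -0.094 to 0.202 in the IS, -0.189 to 0.198 in the caput, -0.005 to 0.056 in the testis, -0.007 to 0.182 between WT segments, with 3 of 5 above 0.1, and -0.120 to 0.197 between ArKI segments. Replicate 5 was above 0.1 in each epididymal comparison. Between genotypes a number joins different mice, and within a genotype the labels do not say that it marks 1 mouse. With the number as a replicate block the counts were 1 strict, 11 higher and 13 lower in the IS, 4, 12 and 10 in the caput, 0, 0 and 0 in the testis, 17, 19 and 21 between WT segments, and 4 and 6 for the interaction. Among the calls that the block changed, it added Foxi1 in the IS (adjusted p = 0.0332 by edgeR) and Slc9a3r1 in the caput, and it lost Car13 in the caput and Car4 and Car13 between WT segments.

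Depth limited the values of Slc4a9 in the WT IS and the caput, of Slc9a3 and Slc9a10 in the caput and of Slc26a4 in both segments, which stood at a few counts per library. Among others, Cftr, Car14, Slc4a2, Atp6v0a4, Atp6v1c2, Atp6v0b, Atp6v1g2 and Atp6v1e2 share exon bases with antisense genes, and the counting strand is not given in the sources used here.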
